A study of Mus musculus with 4 samples.

Results

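The light strand of the mouse mitochondrial genome carries 8 tRNA genes, and their transcripts were measured here in mitochondria isolated from brown fat (brown adipose tissue, BAT), a tissue that burns fuel to make heat. The members were all genes of the Ensembl biotype Mt_tRNA that lie on the minus strand, which gave 8 of the 22 mitochondrial tRNA genes, the 37 mitochondrially encoded genes and the 17259 genes in the deposited table. Each group held 2 libraries from wild-type mice, made either from isolated mitochondria or from what the treatment label calls the tissue minus mitochondria. The sample titles call the latter BAT-total and the study describes lysates of total BAT, so the label and the study differ on whether mitochondria had been removed. It is called the non-mitochondrial fraction here after its treatment label, and may hold the whole tissue. No genotype or agent other than wild type is named for any library, and the labels give neither age nor sex, nor whether the replicates came from separate animals, so the p-values measure only the spread between these samples.

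The mitochondrial genome is copied from both strands into long precursors. In these, tRNAs sit between the other genes as punctuation marks, and their excision by RNase P at the 5′ end and by ELAC2 at the 3′ end releases the neighbouring RNAs. The light-strand precursor yields these tRNAs and a single mRNA, mt-Nd6, while the heavy strand gives the rRNAs, the other mRNAs and the other tRNAs. All of them serve the ribosomes inside mitochondria, which make subunits of the respiratory chain.

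The sequences are shown because the tRNAs are known by their anticodons and because each gene is shorter than the 75-base read with which it was counted. They were read from the transcripts of GENCODE M21 (GRCm38), 5′ to 3′ as the gene strand, with the anticodon in capitals. All 37 mitochondrially encoded genes had the same coordinates in the deposited table and in that annotation.
mt-Tq (glutamine), chrMT:3772-3842: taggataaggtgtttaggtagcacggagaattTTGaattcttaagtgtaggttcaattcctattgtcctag
mt-Ta (alanine), chrMT:5018-5086: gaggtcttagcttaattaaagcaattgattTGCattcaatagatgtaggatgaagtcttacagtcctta
mt-Tn (asparagine), chrMT:5089-5159: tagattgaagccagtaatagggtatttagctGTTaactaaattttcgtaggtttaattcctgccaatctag
mt-Tc (cysteine), chrMT:5192-5257: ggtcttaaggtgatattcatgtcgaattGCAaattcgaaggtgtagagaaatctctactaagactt
mt-Ty (tyrosine), chrMT:5260-5326: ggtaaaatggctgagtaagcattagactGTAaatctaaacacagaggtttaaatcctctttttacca
mt-Ts1 (serine), chrMT:6870-6938: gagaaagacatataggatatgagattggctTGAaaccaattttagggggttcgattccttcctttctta
mt-Te (glutamate), chrMT:14071-14139: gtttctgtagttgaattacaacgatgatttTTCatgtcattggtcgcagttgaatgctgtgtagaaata
mt-Tp (proline), chrMT:15356-15422: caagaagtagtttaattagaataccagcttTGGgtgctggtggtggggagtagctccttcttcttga

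The genes are 66 to 71 bases long, each is a single exon on the minus strand, and each anticodon stood in a loop of 7 bases closed by 5 pairs of a stem. GC content ran from 33.3% in mt-Ta to 44.8% in mt-Tp.

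Every member lies against another gene. mt-Tq overlaps mt-Ti on the other strand by 3 bases, and mt-Ts1 overlaps the end of mt-Co1 by 3 bases. mt-Ta, mt-Tn, mt-Tc and mt-Ty lie side by side with 2, 32 and 2 bases between them, and 1 base separates mt-Ty from mt-Co1. mt-Te precedes mt-Nd6 on their strand with 0 bases between them, and mt-Tp adjoins mt-Tt of the other strand with 0 bases between them. mt-Tp is the only member with no annotated gene on its other side. By the methods of the study, a read counted for a gene when it lay at least partly in an exon, and reads that overlapped several genes or aligned to several places were left out. A full-length read counted for a member therefore also covered bases outside it. Mature tRNA and uncut precursor cannot be told apart in these counts, and a level below means the counts of a gene. Whether strand was used in the counting is not given in the sources used here, and without it, reads from a member and from the antisense precursor cannot be told apart.

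The reads behind the values are known for one fraction only. Mitochondria replicates 1 and 2 held 26288861 and 24910483 reads assigned to genes, recovered from the steps of the normalised counts, and mitochondrially encoded genes took 95.2% to 95.5% of their total against 51.1% to 59.3% of the non-mitochondrial libraries. Markers of brown adipocytes were present, 8 of 8 in 3 libraries and 7 of 8 in mitochondria replicate 2, where Prdm16 was at 0. Their summed normalised counts were 1723 and 4748 in mitochondria against 7073 and 6283 in the non-mitochondrial fraction. The 7 liver markers summed to 10344 and 794 in mitochondria and to 173 and 5 in the non-mitochondrial fraction, where 4 of 7 were at 0 in replicate 2. The 7 skeletal muscle markers summed to 3338 and 1062 against 396 and 740, and the 5 macrophage markers to 366 and 234 against 58 and 57. The 5 endothelial markers summed to 101 and 7 against 830 and 851, with 4 of 5 at 0 in mitochondria replicate 2, and the 5 blood markers to 250 and 635 against 296 and 624. The part of these cell types in the values of the tRNAs, which every tissue makes, was not tested, and in bulk RNA fewer cells of a type and less RNA per cell cannot be told apart.

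The first question was at which level each tRNA gene was counted. A normalised count is the number of reads of a gene divided by a size factor of its library. mt-Tp, the proline tRNA and the gene nearest to the start of the light-strand precursor, had 87613 and 53948 normalised counts in mitochondria replicates 1 and 2 against 371 and 462 in the non-mitochondrial fraction, from 10528 and 7817 reads in mitochondria. mt-Ty, the tyrosine tRNA, had 29826 and 25570 normalised counts in mitochondria (3584 and 3705 reads) against 44 and 36. These 2 tRNAs stood well above the rest in mitochondria, and in the non-mitochondrial fraction only mt-Tp did.

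Among the other 6 members, the adjacent genes mt-Ta and mt-Tn had similar values. mt-Ta had 4952 and 2705 normalised counts in mitochondria against 87 and 81 in the non-mitochondrial fraction. mt-Tn had 4594 and 3023 in mitochondria against 89 and 87 in the non-mitochondrial fraction. The ratio of mt-Ta to mt-Tn was 1.08 and 0.895 in mitochondria against 0.978 and 0.931 in the non-mitochondrial fraction, and the groups overlapped (exact permutation test, two-sided, p = 1.0). mt-Tq, the glutamine tRNA, had 3079 and 1995 against 47 and 56. mt-Te, the glutamate tRNA, had 1773 and 1208 against 46 and 58. mt-Ts1, which reads a family of serine codons, had 1531 and 828 against 19 and 20. Every member was higher in mitochondria replicate 1 than in replicate 2 on this scale, as was the sum of all mitochondrially encoded genes (208381672 against 164122600). mt-Tc, the cysteine tRNA, was the lowest member in every library, with 374 and 331 normalised counts against 5 and 7. Its values in mitochondria rest on 45 and 48 reads, and in the other fraction a step of 1 unit is large beside its level.

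**Figure D1:**
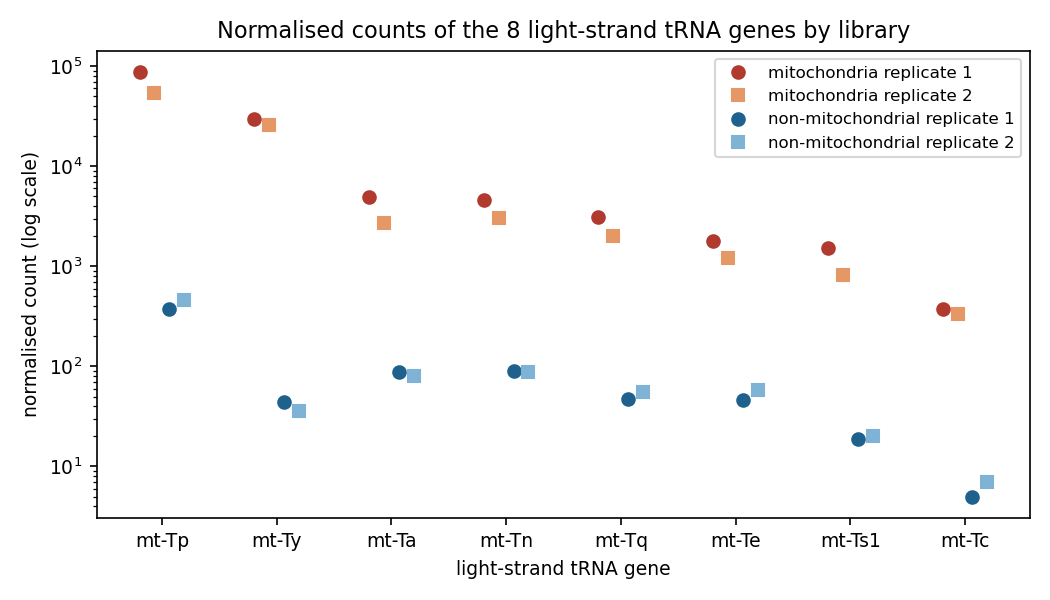
Normalised count (log axis) of each of the 8 light-strand tRNA genes, with 1 point per library, circles for replicate 1 and squares for replicate 2. In each gene both mitochondria libraries lie above both non-mitochondrial libraries, from 374 and 331 against 5 and 7 in mt-Tc to 87613 and 53948 against 371 and 462 in mt-Tp.

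Levels of different genes were compared per length, as normalised counts per kb of gene. In mitochondria the order was mt-Tp (1056430 per kb), mt-Ty (413403), mt-Ta (55486), mt-Tn (53641), mt-Tq (35732), mt-Te (21602), mt-Ts1 (17094) and mt-Tc (5341), each a mean of 2 libraries. The neighbours mt-Ta and mt-Tn, mt-Tn and mt-Tq, and mt-Te and mt-Ts1 did not differ beyond the range of their libraries, and the other neighbours in this order lay apart. Within each mitochondria library mt-Tn was above mt-Tq and mt-Te above mt-Ts1, while mt-Ta and mt-Tn changed places. In the non-mitochondrial fraction the order was mt-Tp (6216 per kb), mt-Tn (1239), mt-Ta (1217), mt-Te (754), mt-Tq (725), mt-Ty (597), mt-Ts1 (283) and mt-Tc (90.9), and mt-Tn and mt-Ta, and mt-Te and mt-Tq, did not differ beyond their range. The orders differed mainly in the place of mt-Ty, which was the second in mitochondria and the sixth in the non-mitochondrial fraction. mt-Tp exceeded mt-Tc by 198-fold per length in mitochondria and by 68.4-fold in the non-mitochondrial fraction. The share of reads left out for overlapping several genes may differ between members, as mt-Tp has a free side, and was not tested. The mRNA of the same precursor, mt-Nd6, which encodes a subunit of complex I, stood at 302438 ± 110669 per kb in mitochondria and 2063 ± 192 in the non-mitochondrial fraction (SD, n = 2), between mt-Ty and mt-Ta in mitochondria and between mt-Tp and mt-Tn in the other fraction. Its place beside mt-Ty depended on the length used, since reads that only partly overlap a gene were counted. Per kb of gene length plus 74 bases, mt-Nd6 (333185 and 196207) lay above mt-Ty (211532 and 181348) in both mitochondria libraries.

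The levels were then set against the position along the strand. Counted downstream from the start of mt-Tp, mt-Te lies at 1283 bases, mt-Ts1 at 8484, mt-Ty at 10096, mt-Tc at 10165, mt-Tn at 10263, mt-Ta at 10336 and mt-Tq at 11580. The neighbours mt-Ty and mt-Tc were the second highest and the lowest in mitochondria. The rank correlation of distance with level per kb was -0.119 in both fractions and that of GC content with level was -0.143, over 8 genes of the same libraries, given as a description. Between replicates the rank correlation of the 8 levels was 0.976 in either fraction, and between mitochondria and the non-mitochondrial library of the same number it was 0.738. Over the 14 heavy-strand tRNAs the latter was 0.881.

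**Figure D2:**
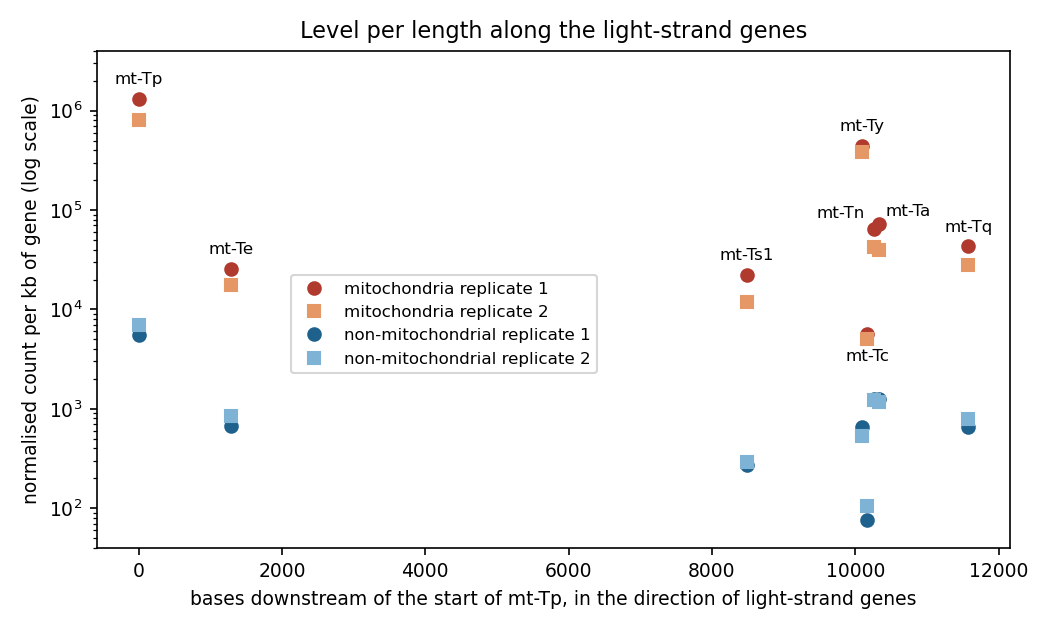
Normalised count per kb of gene (log axis) against bases downstream of the start of mt-Tp in the direction of the light-strand genes, with 1 point per library. mt-Tp at 0 bases has the highest level in every library, and mt-Ty and mt-Tc, at 10096 and 10165 bases, lie far apart in mitochondria (413403 and 5341 per kb on average).

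The second question was how far the fractions differed on the scale of the deposited values. All 8 light-strand tRNAs were higher in mitochondria (limma on log2 of the normalised count plus 1, Benjamini-Hochberg adjusted p from 0.0249 to 0.0271 with a threshold of 0.05), where 0.803% of the 8215 genes tested were called higher and 4.41% lower. Both mitochondria libraries lay above both others for all 8, as for 8.59% of all genes tested (52.1% lay below). With the replicate number as a block, 0 of the 8 passed (adjusted p = 0.158, limma), as did 0 of all genes tested, and no label pairs the samples. mt-Ty differed most, by 692-fold between the means, with single pairs of libraries from 581-fold to 829-fold apart. Its log2 fold change was 9.40 (SE 0.43). mt-Tp followed with 7.37 (SE 0.50). The other 6 lay close together, mt-Ts1 at 5.78, mt-Tc at 5.67, mt-Tq at 5.57, mt-Ta at 5.43, mt-Tn at 5.39 and mt-Te at 4.80 (SE 0.44 to 0.53). The median of the 8 was 5.62, while over all genes tested it was -1.23. The 14 heavy-strand tRNAs were all called higher as well, with a median of 5.13. They ranged from 4.27 in mt-Tv, the valine tRNA, to 7.71 (SE 0.74) in mt-Th, the histidine tRNA. The mitochondria replicates of mt-Th lay far apart, at 57446 and 19000 normalised counts. mt-Nd6 was at 7.15 (SE 0.51), and the 13 mRNAs had a median of 7.53. The estimate for mt-Ty lay above those of all mRNAs and rRNAs of the genome, and the estimates for the 6 lower members lay below them.

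With 1 non-mitochondrial library left out, where the spread comes from the mitochondria pair alone, 0 of the 8 passed, as did 0 of all 8215 genes (limma adjusted p 0.439 to 0.469 without replicate 1 and 0.446 to 0.474 without replicate 2). The log2 fold changes were then 4.63 to 9.54 and 4.96 to 9.26, beside 4.80 to 9.40 with all libraries. The calls depended on the scaling, because in CPM, where every library has the same total, only mt-Ty (log2 fold change 2.59) and mt-Tp (0.57) were called higher and the other 6 were called lower, with log2 fold changes from -1.84 in mt-Te to -0.64 in mt-Tc. In CPM 0.377% of all genes tested were called higher and 97.0% lower.

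The third question, which removes the difference in mitochondrial content but not in treatment or preparation, was how the tRNAs stood within the mitochondrial transcripts. For this each value was divided by the sum over the 37 mitochondrially encoded genes of its library and expressed in parts of 1000000 (ppm). Of the 8 members, 1 was called higher in mitochondria and 6 lower (limma on log2 of the value plus 1), while the shares of all genes tested were 0.134% higher and 97.2% lower. The latter share consists almost wholly of nuclear genes, which take a smaller part of the mitochondria libraries. The other 29 mitochondrially encoded genes are therefore the closer measure, with 0 called higher and 11 lower.

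mt-Ty was the member that rose. It made up 143 and 156 ppm of the mitochondrial transcripts in mitochondria against 54.2 and 31.9 in the non-mitochondrial fraction, so that the groups lay apart. The means were 149 ± 8.96 and 43.0 ± 15.8 (SD, n = 2), a 3.47-fold difference, with a log2 fold change of 1.82 (SE 0.34, adjusted p = 0.00103, limma). mt-Tp made up 420.4 and 329 ppm in mitochondria against 457 and 409 in the non-mitochondrial fraction, and the groups overlapped. Its log2 fold change was -0.22 (SE 0.29, adjusted p = 0.485, limma).

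The other 6 were lower in mitochondria, with no overlap between the groups, which held for 97.4% of all genes tested on this scale. mt-Te fell most, from 56.7 and 51.4 ppm in the non-mitochondrial fraction to 8.51 and 7.36 in mitochondria, a 6.81-fold difference with a log2 fold change of -2.62 (SE 0.28, adjusted p = 3.23e-05, limma). Both genes of the adjacent pair fell. mt-Tn stood at 22.05 and 18.4 ppm in mitochondria against 109.6 and 77.0 (log2 fold change -2.13, SE 0.31), and mt-Ta at 23.8 and 16.5 against 107 and 71.7 (-2.09, SE 0.34). mt-Tq stood at 14.8 and 12.2 against 57.9 and 49.6 (-1.92, SE 0.29). mt-Ts1 stood at 7.35 and 5.05 against 23.4 and 17.7 (-1.59, SE 0.32). The adjusted p-values of these 4 ran from 0.000232 to 0.00151 (limma). The smallest decrease was that of mt-Tc, at 1.79 and 2.02 against 6.16 and 6.20 (-1.31, SE 0.27, adjusted p = 0.00204, limma), where the added 1 makes the fold change smaller than the 3.24-fold difference of the means. Without mitochondria replicate 1, mt-Tc no longer passed (log2 fold change -1.25, adjusted p = 0.0561, limma) and 5 members were called lower, as were 8020 of the 8215 genes tested.

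**Figure D3:**
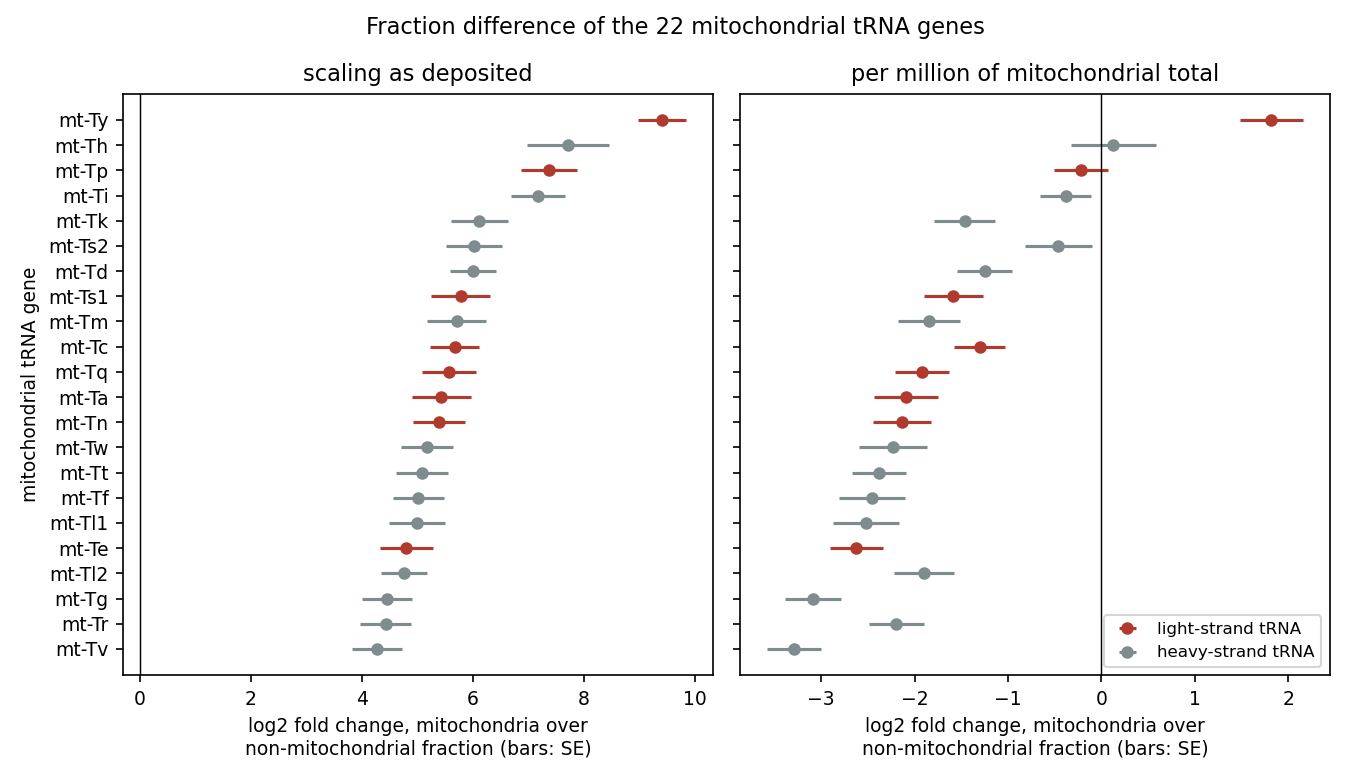
Log2 fold change of mitochondria over the non-mitochondrial fraction for the 22 mitochondrial tRNA genes from limma, as deposited (left) and in ppm of the mitochondrial total (right), with bars of 1 SE and light-strand tRNAs in red. mt-Ty lies highest in both panels (9.40 and 1.82), and on the right the other light-strand tRNAs except mt-Tp (-0.22) lie between -2.62 and -1.31, among the heavy-strand tRNAs.

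Of the 14 heavy-strand tRNAs, 11 were called lower on the same scale and 0 higher, with a median of -2.05 beside -1.76 for the 8 light-strand tRNAs. No mRNA (0 of 13) and no rRNA (0 of 2) was called in either direction, and mt-Nd6 made up 829 ± 169 ppm in mitochondria and 1121 ± 157 in the non-mitochondrial fraction. When the 37 genes were fitted alone, an alternative added after the data had been seen, the light-strand counts were again 6 lower and 1 higher, while 12 heavy-strand tRNAs, 3 mRNAs and 1 rRNA were called lower. Against the sum of the 22 tRNA genes in place of all 37, mt-Ty was still called higher (log2 fold change 2.98, SE 0.53, adjusted p = 0.0157) and of the 6 lower members only mt-Te was called (-1.63, SE 0.48, adjusted p = 0.0466, limma), with 0.158% of all genes tested called higher and 86.6% lower on that scale. mt-Tp was at 0.92 (SE 0.48) there and did not pass. The SEs and p-values depended on the unit in which 1 was added. With the mitochondrial totals as factors of geometric mean 1, also added after the data had been seen, 6 members were again lower and 1 higher. mt-Te was then at -2.76 (SE 0.56, adjusted p = 0.00132) and mt-Ty at 1.84 (SE 0.59, adjusted p = 0.0151, limma). Of the 8215 genes tested, 13 were called higher and 7988 lower in that setting.

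The light-strand tRNAs made up 51.4% (95% Wilson interval 50.9 to 52.0%) of the reads of the 22 tRNA genes in mitochondria replicate 1 and 58.8% (58.2 to 59.5%) in replicate 2, intervals that cover counting error only. They made up 32.1% and 34.7% of the tRNA counts in the non-mitochondrial fraction. The means of 55.1% ± 5.24 and 33.4% ± 1.88 (SD, n = 2) differed by 21.7 percentage points, with all mitochondria values above all others, but 2 libraries against 2 cannot give an exact permutation p below 0.333, which was the value here (two-sided). Without mt-Tp the difference was 13.05 points, or 8.29 points when mitochondria replicate 2 was also left out and 17.8 when replicate 1 was. Without both mt-Tp and mt-Ty it turned, to 12.6% ± 1.72 in mitochondria against 16.6% ± 0.411 (-4.00 points, exact permutation p = 0.333). Among all mitochondrially encoded transcripts the light-strand tRNAs made up 0.0642% and 0.0546% in mitochondria against 0.0872% and 0.0715% in the non-mitochondrial fraction, a difference of -0.0199 points (exact permutation p = 0.333) that was -0.0121 without non-mitochondrial replicate 1, and the heavy-strand tRNAs 0.0494% ± 0.0159 against 0.159% ± 0.0356 (SD, n = 2).

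The make-up of the light-strand pool also differed between the fractions. mt-Tp took 65.5% and 60.2% of it in mitochondria against 52.4% and 57.2% in the non-mitochondrial fraction. mt-Ty took 22.3% and 28.5% in mitochondria against 6.21% and 4.46% in the non-mitochondrial fraction. Together the other 6 tRNAs took 12.2% and 11.3% in mitochondria against 41.4% and 38.3% in the non-mitochondrial fraction, a difference of -28.1 points against an SD of 0.657 and 2.19 within the groups.

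**Figure D4:**
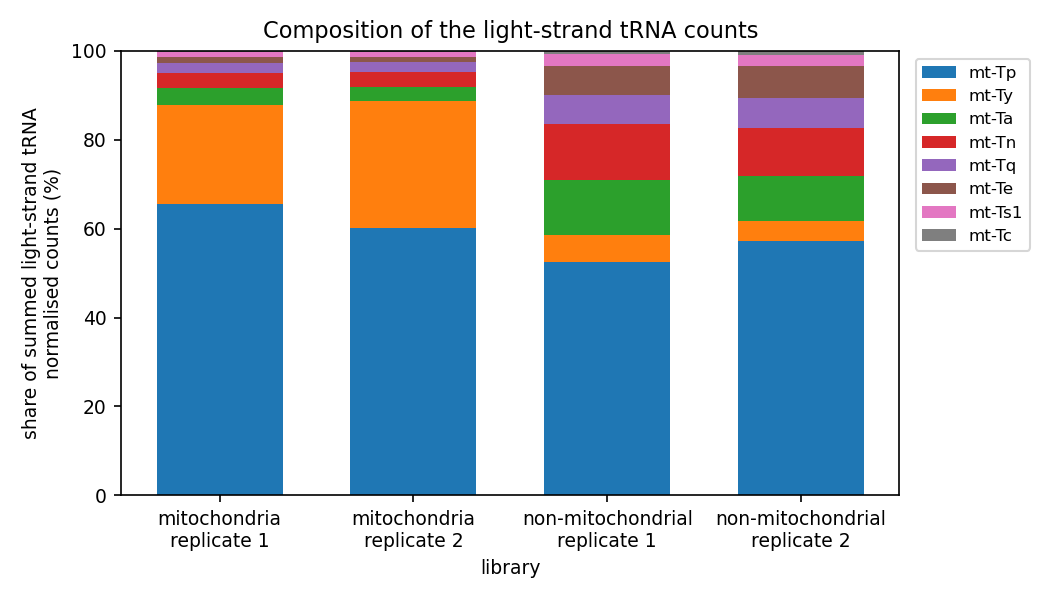
Share of each light-strand tRNA in the summed normalised counts of the 8 genes (%), with 1 bar per library. mt-Tp and mt-Ty together make up 87.8% and 88.7% of the mitochondria libraries and 58.6% and 61.7% of the non-mitochondrial libraries.

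Ratios between genes need no scaling, since both values come from the same library. mt-Ty exceeded mt-Tc, its neighbour at 2 bases on the same strand, by 79.7-fold and 77.3-fold in mitochondria but by 8.80-fold and 5.14-fold in the non-mitochondrial fraction, so that the ratio was 11.7-fold larger in mitochondria. Relative to mt-Co1, the mRNA of a complex IV subunit 1 base away on the other strand, mt-Ty was 3.90-fold higher in mitochondria. mt-Tp exceeded mt-Tt, the threonine tRNA beside it on the other strand, by 36.3-fold and 33.4-fold in mitochondria but by 7-fold and 7.45-fold in the non-mitochondrial fraction. The groups lay apart in each of these ratios, and each had the smallest exact permutation p the design allows, 0.333.

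For mt-Te and mt-Nd6, which adjoin on one strand, the order of the fractions was the opposite. The ratio of mt-Te to mt-Nd6 was 0.00897 and 0.0104 in mitochondria against 0.0460 and 0.0508 in the non-mitochondrial fraction, 5.01-fold larger in the latter. The ratio of mt-Tp to mt-Nd6 was 0.371 and 0.405 in the non-mitochondrial fraction and 0.443 and 0.464 in mitochondria, a 1.17-fold difference. mt-Tq, set against mt-Ti, the isoleucine tRNA that it overlaps, stood at 0.406 and 0.342 in mitochondria against 1.27 and 1.02 in the non-mitochondrial fraction. Set against mt-Tm, the methionine tRNA on its other side, mt-Tq gave overlapping groups, as did mt-Ts1 against mt-Td, the aspartate tRNA (exact permutation p = 0.667 for both). In all, 16 ratios between a member and an adjacent or another mitochondrial gene were computed, with exact p-values from 0.333 to 1.0 that pass no threshold with or without adjustment.

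Among the genes tested that are no members, those whose profile over the 4 libraries lay nearest to the mean profile of the 8 were the heavy-strand tRNA genes mt-Tk (lysine) and mt-Td, at Euclidean distances of 0.211 and 0.308 in log2 units, and Gm11512, a processed pseudogene, at 0.521. mt-Tk had 26289 and 14617 normalised counts in mitochondria against 280 and 283 in the non-mitochondrial fraction.

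Near-copies of some members exist in the nuclear genome. A transcript of Cep295 matched mt-Tn at 91.5% over 71 bases, mt-Ta at 89.8% over 59 bases, mt-Ty at 88.3% over 60 bases and mt-Tc at 84.1% over 63 bases. On chromosome 1, the copies of mt-Co1 (Gm29216, 99.8% identity) and mt-Co2 (Gm28661, 100%) lie 140 bases apart, as do the originals, and the original stretch holds mt-Ts1. On chromosome 2, copies of mt-Nd2 (Gm13339, 96.7%) and mt-Co1 (Gm13340, 97.6%) lie 376 bases apart, as far as the originals between which mt-Ta, mt-Tn, mt-Tc and mt-Ty stand. Reads that aligned to several places were left out of the counts by the methods of the study, and the share of reads that these tRNAs lost in this way was not tested.

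Nuclear genes for the proteins that make and use these tRNAs were low in all 4 libraries. Across 5 lists, 35 genes had a mean normalised count of at least 10 and were tested, and limma called 0 higher and 0 lower, with 0 calls by edgeR and DESeq2. The count lower depended on the setting, with 35 in CPM over all genes, 34 in CPM over nuclear genes, 12 without mitochondria replicate 1 and 20 without replicate 2, where 7968, 7496, 3374 and 3864 of the 8215 genes were called lower. At an unadjusted p under 0.05, 3 were lower and 0 higher, while 14.9% of all genes tested were lower and 3.2% higher. Among the 10 aminoacylation genes, which charge tRNAs with their amino acids, Gatb, a subunit of the enzyme that forms glutaminyl-tRNA, had 0 and 7 normalised counts in mitochondria against 43 and 39 in the non-mitochondrial fraction, and Aars2, the alanyl-tRNA synthetase, had 8 and 7 against 31 and 33. The prolyl-tRNA synthetase gene Pars2 had 0 and 76 against 6 and 2, with the widest gap inside mitochondria among the aminoacylation genes. Of the 7 processing genes in the table, Hsd17b10 and Trmt10c, subunits of the mitochondrial RNase P, had 33 and 14 against 56 and 48 and 17 and 35 against 43 and 38. Tbrg4, of a family of mitochondrial RNA-binding proteins, had 0 and 41 against 69 and 50.

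The 16 modification genes included Nsun2, a cytosine methyltransferase, with 67 and 48 normalised counts against 58 and 42, Trit1, which modifies the base next to the anticodon, with 8 and 35 against 35 and 32, and Mto1, which modifies the wobble base, with 0 and 35 against 37 and 22. Of the 10 genes of mitochondrial DNA transcription, the factor Tfam had 75 and 28 against 40 and 29, Tfb2m had 8 and 76 against 63 and 65, and the polymerase Polrmt had 25 and 7 against 49 and 53. Of the 7 genes of RNA surveillance, Lrpprc, which stabilises mitochondrial mRNAs, had 33 and 145 against 253 and 201, Grsf1 had 58 and 117 against 139 and 148, and Fastk had 50 and 28 against 98 and 91. In mitochondria these counts rest on 0 to 21 reads per library, and a single read is worth 8.32 or 6.90 normalised counts. The medians of the log2 fold changes of the tested genes were -0.87 for aminoacylation, -3.13 for processing, -0.78 for modification, -1.30 for transcription and -1.15 for surveillance, beside -1.23 over all genes tested.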

How the data were processed

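RNA of isolated mitochondria (n = 2) and of the non-mitochondrial fraction (n = 2) of brown adipose tissue was sequenced by the authors from 10 ng per library with a stranded total RNA kit for low input, as single-end reads of 75 bases. RNA fragmentation was fitted to RNA size in the mitochondrial samples, with no setting stated for the other libraries, so library preparation may have differed along with the fraction. The isolation that the study describes for hearts also treated the mitochondria with digitonin and RNase A before RNA extraction. The effect of these steps on the tRNA values was not tested. The submitters' processing notes name Trimmomatic 0.39, STAR 2.7.10a, featureCounts 2.0.2 and DESeq2 1.30.1 with the mouse build mm10 (GRCm38). The authors deposited a table of 17259 genes whose signal is the read count divided by a size factor per library, rounded to whole numbers, and called normalised count here. No column of a comparison was in it and 0 columns were left unused.

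One read was worth 8.32 units in mitochondria replicate 1 and 6.90 in replicate 2, and 100.0% of the values there came out as whole reads (tolerance 0.51 units). In the non-mitochondrial libraries the reads behind a unit are unknown. Their normalised totals were 1590096 and 1905303, against 218773335 and 171918657 in mitochondria.

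Genes with a mean of at least 10 were tested (8215) as log2 of the value plus 1 with limma 3.58.1 (R 4.3.3), without trend or robust prior, with group as the only term and Benjamini-Hochberg adjustment over all genes tested, and an adjusted p under 0.05 was a call. The pseudocount of 1 makes the fold changes of low genes smaller. Single values were compared by exact permutation tests in scipy 1.17.1. Near-copies were searched with BLAST 2.17.0 among GENCODE M21 transcripts (at least 80% identity over 30 bases, and for copies of mRNA genes 95% over 100 bases). No nuclear genome sequence was used. edgeR 4.0.16 and DESeq2 1.42.0 were run as alternatives on the recovered reads, with the deposited values of the other libraries taken as reads and the deposited scaling kept. The other alternatives changed the pseudocount, the filter, the scaling, the denominator, the block and the libraries. The text names the 8 members, other mitochondrial genes that adjoin them or end a range, mt-Nd6, up to 3 genes of each list with the highest mean, listed genes that were called, and the 3 nearest profiles. Emcn, an endothelial marker with 0 reads in mitochondria, was the only gene of the nuclear lists that limma called. The members and lists were chosen with earlier results of these data known.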

Additional observations from a re-analysis of the deposited data

How the results depend on the processing

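The 8 higher calls of the deposited scale became 2 higher and 6 lower with CPM over all genes, under which the median over all genes was -4.25 in place of -1.23 and 31 of 8215 genes were called higher and 7968 lower. The log2 fold changes then were -1.14 for mt-Tq, -1.31 for mt-Ta, -1.35 for mt-Tn, -0.64 for mt-Tc, -0.84 for mt-Ts1 and -1.84 for mt-Te, and the 14 higher heavy-strand tRNA calls became 0. With CPM over nuclear genes (median -4.01), TMM (-0.90) and median ratios over nuclear genes (-0.62) all 8 stayed higher (with CPM over nuclear genes by a median of 2.13 in place of 5.62, mt-Ty by 5.88 and mt-Te by 1.28), as with edgeR, DESeq2, other pseudocounts and other filters. Leaving out each library in turn gave 0 to 8 light-strand calls and 0 to 14 heavy-strand calls, with 0 of both without either non-mitochondrial library, and over all genes 467 and 622 were called higher without mitochondria replicate 1 or 2. The nuclear genes called lower (0) numbered 10 without a filter, 35 with CPM over all genes, 34 with CPM over nuclear genes and 0 to 20 with a library left out, 12 without mitochondria replicate 1 and 20 without replicate 2. Over all genes tested, the same settings called 3587 of 17259 lower without a filter, and 7968, 7496, 3374 and 3864 of 8215 in the others. The cause was not tested. Genes called over the whole table ran from 66 higher and 362 lower to 178 and 205 with edgeR, 193 and 301 with DESeq2, 53 and 1 with a pseudocount of 10, 64 and 11 with a mean of at least 50, and 143 and 3587 without a filter.

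Within the mitochondrial transcripts the 6 lower calls became 1 with the 22 tRNA genes as denominator, where mt-Tp turned to 0.92, and 5 to 6 with a library left out. A pseudocount of 10 in ppm left 6 lower and 1 higher, with 2 of all genes called higher and 7859 lower. The log2 fold changes then shrank to -0.44 for mt-Tc, -0.91 for mt-Ts1 and -1.83 for mt-Te. The share among tRNAs turned to -4.00 points without mt-Tp and mt-Ty, an alternative chosen after seeing the data. With a library left out, its difference ran from 18.0 to 25.4 points and that of the share among mitochondrial transcripts from -0.0278 to -0.0121, the latter without non-mitochondrial replicate 1.

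With the replicate number as a block, 0 of 8 light-strand and 0 of 14 heavy-strand tRNAs passed on the deposited scale (adjusted p = 0.158, limma), as did 0 of all genes, while 944 genes had an unadjusted p under 0.05. No label pairs the samples, and the correlation of deviations between equal numbers was 0.112 over 8215 genes. Whether equal numbers came from the same preparation is not known.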
